A study of Homo sapiens with 3 samples.

Results

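Lipocalin-2, complement and acute-phase genes are a set of 10 genes that were followed across A375 cells, an established human melanoma line, after exposure to adipocyte secretomes. The set holds LCN2, C3, CFB, SAA1, SAA2, PTX3, C1R, C1S, SERPINA3 and SOD2, and its genes were chosen by name with their counts in these same libraries known. Their values in every comparison are therefore a description, with no test. By the symbol column of the count file, the 10 genes take up 11 of 58037 rows, since SERPINA3 names a pair of overlapping rows. A375 cells were kept for 24 h in serum-free DMEM (control), in young adipocyte secretome (YA-A375) or in old adipocyte secretome (OA-A375), and each group had 1 library of poly(A) RNA. The 24 h come from the series text, as the labels give a longer range of exposure for the cells. Both secretomes were serum-free DMEM collected from human subcutaneous preadipocytes that had been differentiated in culture with insulin, dexamethasone, indomethacin and IBMX. The control medium had not been on any cells, so effects of conditioning in general and of adipocytes cannot be told apart. How many donors each secretome came from was not given in the sources used here.

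Lipocalin-2 is a small secreted protein that binds bacterial siderophores and so withholds iron, and it is a classic product of neutrophil granules and of epithelium under IL-1 or IL-17. Complement is a cascade of plasma proteases in which the C1r and C1s enzymes start the classical pathway, C3 is the convergence point of all pathways, and factor B (CFB) forms the alternative-pathway convertase with C3b. The acute-phase proteins SAA1, SAA2 and SERPINA3 are made mainly by the liver under IL-6 and IL-1, the long pentraxin PTX3 is made locally by stromal and myeloid cells, and SOD2 is the mitochondrial superoxide dismutase. Many of these genes are known targets of NF-kB, C/EBP or STAT3.

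Libraries held between 18089008 and 21448195 counts, so that 1 count equalled about the same level in each and the floor of 3 counts lay between 0.140 and 0.166 CPM, which is counts scaled to a common library total. With 1 library per group no difference had a replicate check, and the 95% intervals given with each fold change cover counting error only. Of the 11 rows, 7 rows from 6 genes had a mean normalised count of at least 20 over the 3 libraries, the level asked of all genes compared below, and 14413 rows of the file did. C1S lay just outside that minimum with a mean of 17.5, and the second SERPINA3 row lay just inside it with 24.1. LCN2 passed only through its count in OA-A375. As a check of the labelled cell type, CSPG4, a melanoma surface proteoglycan, had 19441, 29002 and 16208 reads in control, YA-A375 and OA-A375, and MCAM, MITF and S100B had at least 550 reads in each. SOX10, a neural crest factor of most melanomas, had 0 reads in all 3 libraries and TYR had 2, 0 and 0. MLANA had 22, 18 and 16 reads, PMEL had 2, 10 and 10, and DCT had 2, 1 and 2. Of the 13 melanoma markers looked at, 8 passed the filter.

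Promoter sequences are shown for 3 genes, LCN2, PTX3 and CFB, because their windows hold a match to the kappaB decamer that NF-kB recognises although their read counts differed widely. RefSeq windows on GRCh38.p14 were found for 6 of the 10 genes. The 250 bases before the RefSeq transcription start are given 5′ to 3′ on the strand of the gene, and capitals mark the decamer. The GENCODE gene spans given below start further upstream. By them the LCN2 and CFB windows lie inside the annotated gene, and the PTX3 window runs past its annotated start. The windows lie at chr9:128149203-128149452 for LCN2, chr3:157436600-157436849 for PTX3 and chr6:31945845-31946094 for CFB, each on the plus strand.
LCN2: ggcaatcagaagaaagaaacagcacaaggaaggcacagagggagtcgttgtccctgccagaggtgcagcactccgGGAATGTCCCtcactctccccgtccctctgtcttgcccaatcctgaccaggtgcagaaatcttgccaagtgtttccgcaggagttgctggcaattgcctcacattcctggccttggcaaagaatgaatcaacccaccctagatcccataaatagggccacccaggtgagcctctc
PTX3: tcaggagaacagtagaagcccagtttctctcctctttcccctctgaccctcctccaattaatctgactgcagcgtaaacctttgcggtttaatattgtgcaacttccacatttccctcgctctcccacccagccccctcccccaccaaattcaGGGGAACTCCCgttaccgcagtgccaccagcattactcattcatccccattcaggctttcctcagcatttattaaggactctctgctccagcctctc
CFB: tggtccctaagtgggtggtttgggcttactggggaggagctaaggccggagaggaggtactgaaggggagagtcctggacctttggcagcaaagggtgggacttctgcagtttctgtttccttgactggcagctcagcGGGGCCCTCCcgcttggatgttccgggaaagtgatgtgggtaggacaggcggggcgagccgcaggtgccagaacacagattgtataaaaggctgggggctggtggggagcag

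The decamer was searched on both strands, and 9.96% of all 35116 RefSeq windows held it. Counted from the start, in LCN2 it lay from -175 to -166, on the minus strand. In PTX3, matches on both strands overlapped between -97 and -87, and CFB had its match from -112 to -103. A relaxed form, GGGNNNNNCC, which every decamer match also meets, was present in 54.4% of all windows. The CFB window also held a STAT palindrome, TTCNNNGAA (6.57% of all windows), and an interferon-response form, GAAANNGAAA (3.02%). The STAT form was also found in a C1R window, from -86 to -78. An AP-1 form, TGANTCA (6.57%), was found in the LCN2 window alone among those of the 6 genes, and a C/EBP form, TTNNGNAA (33.2%), in windows of LCN2, PTX3, SOD2, C1R and SERPINA3. None of the 4 SOD2 windows, the C1R pair or the SERPINA3 window held the decamer. These matches are letters in a window, and binding was not measured.

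LCN2 was barely counted in control and well expressed in OA-A375. LCN2 (ENSG00000148346.11, GRCh38 chromosome 9, 128149071 to 128153455, plus strand) was counted 9 times in control, 29 times in YA-A375 and 721 times in OA-A375. The library in old secretome stood apart, while the other two held at most 29 reads. Normalised for depth, its level was 8.48, 27.4 and 809.3, which is 95.4-fold of control in OA-A375 (interval 49.99 to 209.6) and 3.23-fold of control in YA-A375 (1.49 to 7.76). Between the secretomes LCN2 was 29.5-fold higher in OA-A375 (20.4 to 44.4). By log2 fold change after a pseudocount of 1, it ranked 1 of 14413 genes in OA-A375 over control and 80 in YA-A375 over control. Without a pseudocount, MMP9, with 1 read in control, had a larger ratio in OA-A375 (109.6, 19.2 to 4375). No annotated gene overlapped LCN2. RNA of leukocytes, the textbook source of LCN2, was looked for with 14 markers. Of these, 10 had no more than 3 reads in any library, ELANE and S100A8 had 0 in all 3, and MPO had 1 in control and 0 elsewhere. Their summed level was 8.11 CPM in control, 7.65 in YA-A375 and 5.75 in OA-A375, of which LYZ made up 6.90, 6.71 and 4.75. The part of leukocyte RNA in the LCN2 values was not tested beyond these levels.

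**Figure D1:**
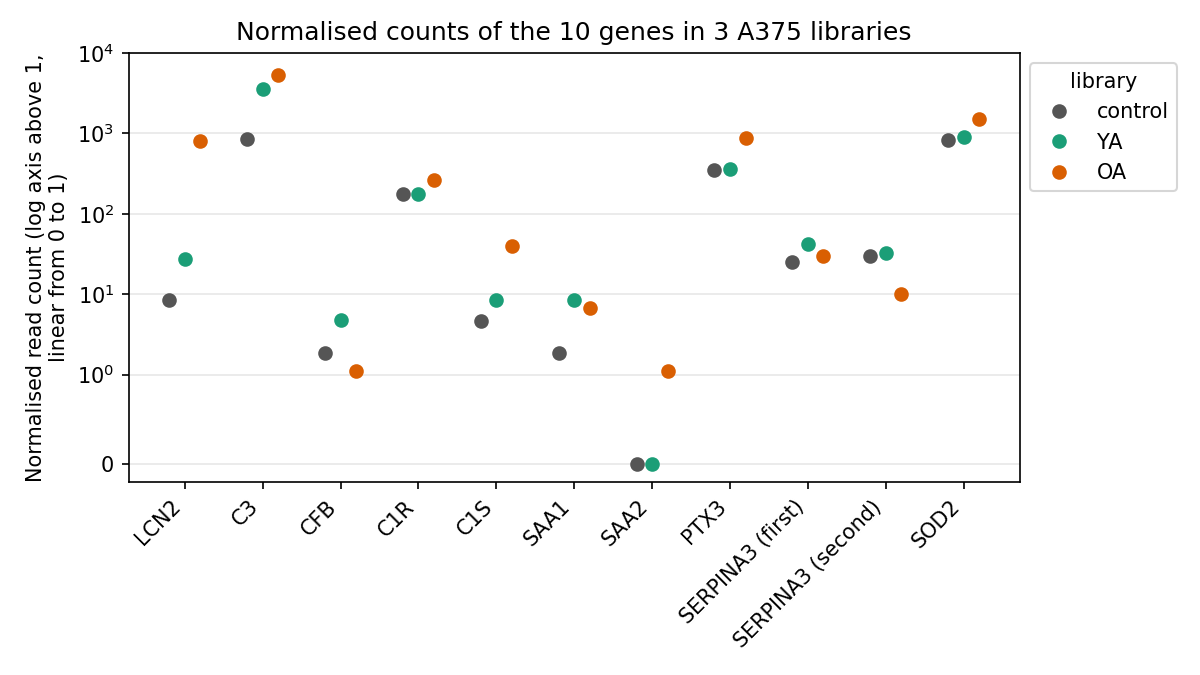
Normalised read counts of the 10 genes (11 rows) in the control, YA and OA libraries, on an axis that is logarithmic above 1 and linear between 0 and 1. Each point is 1 library, and LCN2 spans from 8.48 in control to 809.3 in OA while C3 is already at 3571 in YA.

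C3 had more reads with both secretomes than in control. C3 (ENSG00000125730.16, chromosome 19, 6677704 to 6730562, minus strand), the central complement component, had 908 reads in control, 3778 in YA-A375 and 4772 in OA-A375. Both treated libraries were above control, and OA-A375 was above YA-A375. The fold over control was 4.17 in YA-A375 (3.88 to 4.49) and 6.26 in OA-A375 (5.83 to 6.73), and OA-A375 was 1.5-fold of YA-A375 (1.44 to 1.57). By fold, C3 ranked 30 of 14413 in YA-A375 and 35 in OA-A375. A short transcript annotated inside a C3 intron on the same strand, AC008760.2, was counted 2, 17 and 30 times in control, YA-A375 and OA-A375, the same order as C3, and shared no exon base with it.

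C3 is also expressed by adipocytes and fibroblasts, whose markers were therefore set beside it. The 12 adipocyte markers summed to 169.9 CPM in control, 216.2 in YA-A375 and 171.0 in OA-A375. Levels differed widely between these markers. ADIPOQ had 1, 0 and 0 reads, LEP and CIDEA had 0 throughout and PLIN1 had 2, 5 and 2. FABP4 had 16, 15 and 2, CFD had 28, 35 and 40, and CIDEC, a lipid droplet protein, had 6, 31 and 36. LPL, the lipoprotein lipase, had 353, 583 and 30, LIPE had 79, 153 and 67, and PNPLA2 had 1268, 1242 and 1065. PPARG, the adipogenic nuclear receptor and the marker with the most reads, had 1608, 1964 and 1530, and PLIN4, a lipid droplet coat protein, had 284, 579 and 321. Of these markers 7 passed the filter. In YA-A375 over control 6 were at least 1.2-fold higher and 0 lower, beside 17.4% and 16.4% of all genes. In OA-A375 over control 3 were higher and 1 lower, beside 21.1% and 21.5%. The 12 fibroblast markers summed to 48.5, 66.4 and 84.2 CPM, with COL1A2 at 1, 1 and 2 reads and COL3A1 at 0, 1 and 1. Of these, DCN was at 13, 138 and 24 reads and COL6A3 at 145, 302 and 886. Again 7 passed the filter, with 4 higher and 1 lower in YA-A375 and 3 higher and 3 lower in OA-A375, beside the same shares. C3 itself was 42.3 CPM in control, 177.3 in YA-A375 and 263.8 in OA-A375. The part of other cells in the C3 values was not tested beyond these levels, and more cells with a transcript and more RNA per cell cannot be told apart in bulk libraries.

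The proteases of the C1 complex were expressed at unequal levels. C1R (ENSG00000159403.15, chromosome 12, 7080199 to 7092607, minus strand) had 187 reads in control, 186 in YA-A375 and 234 in OA-A375. Control and YA-A375 differed by less than counting error and OA-A375 was above both, at 1.49-fold of control (1.22 to 1.82), against 0.998-fold for YA-A375 (0.810 to 1.23). C1R shares 672 exonic bases with C1RL, a related protease on the same strand, which was counted 379, 409 and 303 times. C1S (ENSG00000182326.14, chromosome 12, 6988259 to 7071032, plus strand), 9166 bases from C1R, had 5, 9 and 35 reads. Its count was too low for the filter, and its fold of 8.34 in OA-A375 over control had an interval from 3.25 to 27.3, while 1.81 in YA-A375 spanned 0.543 to 6.86. Part of its gene model overlaps EMG1 on the same strand by 229 exonic bases, and EMG1 had 98, 76 and 89 reads.

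CFB was close to absent. CFB (ENSG00000243649.8, chromosome 6, 31945650 to 31952084, plus strand) was counted 2, 5 and 1 times in control, YA-A375 and OA-A375, so that no fold can be given for OA-A375 over control, and 2.51-fold for YA-A375 had an interval from 0.411 to 26.3. C2, the classical-pathway counterpart that overlaps CFB by 23 exonic bases, had 5, 5 and 1 reads. AL645922.1, an annotated coding gene over CFB with 2249 shared exonic bases, had 0 reads in all 3 libraries.

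The serum amyloid A genes were at the edge of detection. SAA1 (ENSG00000173432.10, chromosome 11, 18266174 to 18269977, plus strand) had 2, 9 and 6 reads in control, YA-A375 and OA-A375, and its folds over control of 4.51 (0.934 to 42.9) and 3.57 (0.639 to 36.2) could not be told from 1. SAA2 (ENSG00000134339.8, chromosome 11, 18239223 to 18248643, minus strand) had 0, 0 and 1 reads and gives no fold, and a count of 0 allows up to 0.140 CPM in control. The coding sequences of SAA1 and SAA2, each of 366 bases, are identical at 355 of them (97.0%), so reads may have been left unassigned or split between them. SAA4 and the readthrough SAA2-SAA4 had 0 reads in all 3 libraries. Hepatocyte markers were also all but absent, as 10 of 11 had no more than 3 reads in any library and HNF4A had 4, 3 and 2.

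PTX3, the long pentraxin, was higher in OA-A375 alone. PTX3 (ENSG00000163661.3, chromosome 3, 157436789 to 157443628, plus strand) was counted 370 times in control, 386 in YA-A375 and 773 in OA-A375. The control and young libraries differed by less than counting error, with a fold of 1.05 (0.905 to 1.21), while OA-A375 was 2.49-fold of control (2.20 to 2.82) and 2.38-fold of YA-A375 (2.10 to 2.69). PTX3 lies within VEPH1, which runs on the opposite strand and shares 71 exonic bases with it. VEPH1 had 100, 108 and 202 reads, in the same order, and since the use of strand was not given, reads of the 2 genes in the shared bases cannot be told apart.

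SERPINA3, or antichymotrypsin, gave a different answer for each of its rows. The first, ENSG00000196136.16 (chromosome 14, 94612377 to 94624055, plus strand), had 27 reads in control, 45 in YA-A375 and 27 in OA-A375, which is 1.67-fold of control in YA-A375 (1.02 to 2.80) and 1.19-fold in OA-A375 (0.672 to 2.11). The second, ENSG00000273259.2 (94592058 to 94624646), which GENCODE release 29 names AL049839.2, had 32, 34 and 9 reads and was 0.335-fold of control in OA-A375 (0.141 to 0.718). Both rows share 1592 exonic bases, and the second also shares 79 with SERPINA5, so the assignment of reads between them is uncertain. Added together, a sum chosen after the values were seen, they had 59, 79 and 36 reads, and OA-A375 was 0.727-fold of control (0.466 to 1.12). An increase in OA-A375 was not present in any of these counts beyond counting error.

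SOD2 was abundant throughout and higher in OA-A375. SOD2 (ENSG00000112096.16, chromosome 6, 159669057 to 159745186, minus strand) had 876 reads in control, 955 in YA-A375 and 1337 in OA-A375. Its fold over control was 1.09 in YA-A375 (0.997 to 1.2) and 1.82 in OA-A375 (1.67 to 1.98). SOD1, the cytosolic enzyme, had 5142, 4622 and 4852 reads and was 1.12-fold of control in OA-A375 (1.08 to 1.17), whereas the secreted SOD3 was lower, with 298, 200 and 29 reads and 0.116-fold of control (0.0763 to 0.170). SOD2 shares 298 exonic bases with WTAP on the opposite strand, which had 1103, 1038 and 974 reads. GENCODE release 29 also holds a second SOD2 entry on the same strand, with 845 shared exonic bases, that has no row in the count file.

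**Figure D2:**
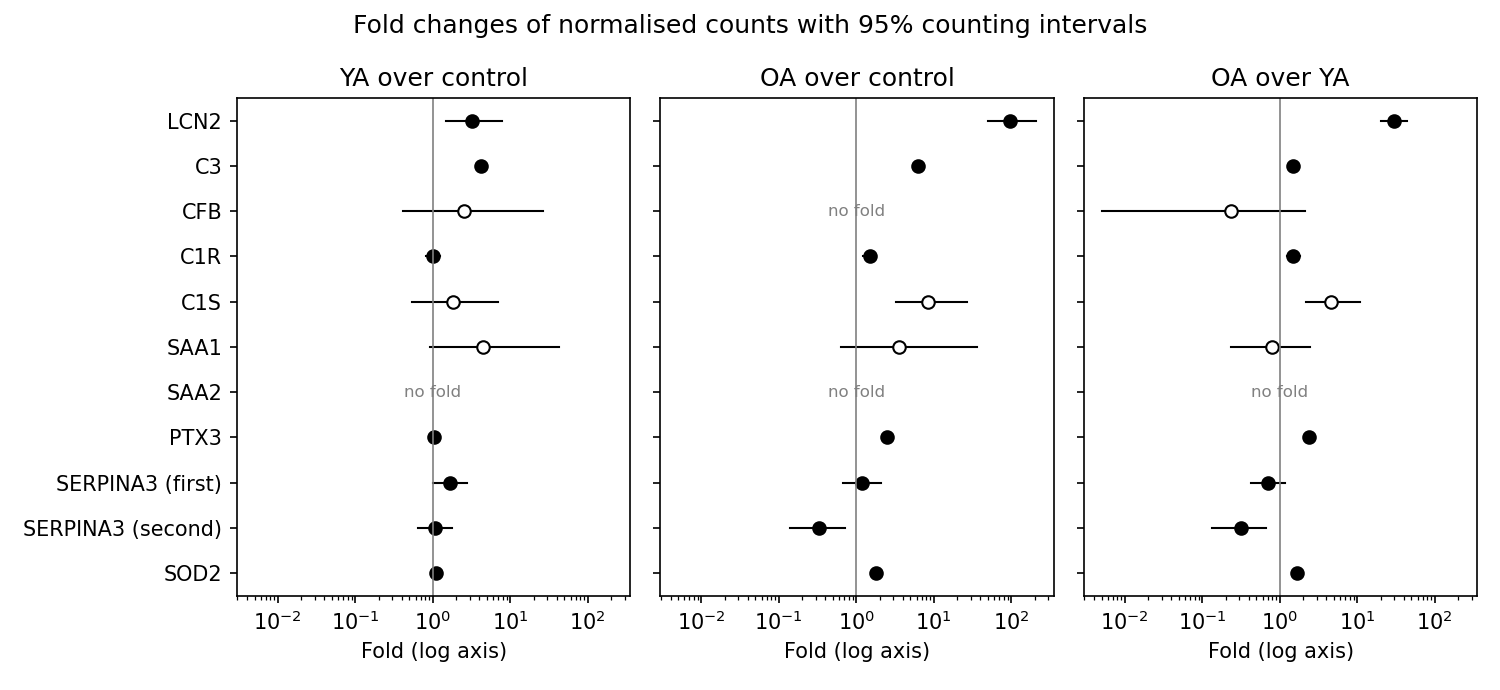
Fold of normalised counts for each row in YA over control, OA over control and OA over YA on a log axis, with 95% counting intervals as lines. Filled points passed the minimum mean count, open points did not, and rows with no more than 3 reads in both libraries are marked as no fold. LCN2 lies at 95.4 in OA over control, and C3 at 4.17 and 6.26 in YA and OA.

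For an order of the 10 genes, levels were taken per length, as RPKM, which is CPM per kilobase of exon in GENCODE release 29. In control the order was PTX3 at 8.89, C3 at 5.08, SOD2 at 2.48 and C1R at 1.48, with no overlap of counting intervals among these 4. LCN2 at 0.263 (0.120 to 0.498) did not differ beyond counting error from the SERPINA3 rows at 0.251 and 0.486. In YA-A375 C3 led with 21.3, followed by PTX3 at 9.34, SOD2 at 2.72, C1R at 1.48 and LCN2 at 0.852. In OA-A375 C3 was at 31.7 (30.8 to 32.6), LCN2 at 24.9 (23.2 to 26.8) and PTX3 at 22.03 (20.5 to 23.6), and the intervals of LCN2 and PTX3 overlapped. SOD2 followed at 4.48 and C1R at 2.20, while the remaining rows lay between 0.0111 for CFB and 0.417 for SAA1, most of them with overlapping intervals. Per kilobase of the longest transcript the 5 genes kept this order in each library, but the overlaps changed. In OA-A375 LCN2 at 45.4 (42.2 to 48.9) lay above PTX3 at 22.03 and overlapped C3 at 50.1 (48.7 to 51.6). In YA-A375 C1R at 2.49 (2.15 to 2.88) overlapped LCN2 at 1.55 (1.04 to 2.23). In control C3 at 8.04 overlapped PTX3 at 8.89, and SOD2 at 2.86 overlapped C1R at 2.49. All 11 rows together took 112.7 CPM in control, 255.1 in YA-A375 and 437.6 in OA-A375. C3 made up 37.6%, 69.5% and 60.3% of these reads, and LCN2 went from 0.372% in control to 0.533% in YA-A375 and 9.11% in OA-A375.

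Counts of rows past a fold were read beside those of all genes, with the fold taken after a pseudocount of 1. In OA-A375 over control, 5 of the 7 rows that passed the filter were at least 1.2-fold higher (LCN2, C3, PTX3, SOD2 and C1R), beside 21.1% of all 14413 genes, and 1 was at least 1.2-fold lower (the second SERPINA3 row), beside 21.5%. At least 2-fold higher were LCN2, C3 and PTX3, beside 2.86% of all genes. In YA-A375 over control, 3 rows were at least 1.2-fold higher (C3, LCN2 and the first SERPINA3 row), beside 17.4% of genes, 0 rows were lower, beside 16.4%, and C3 and LCN2 passed 2-fold, beside 2.15%. In OA-A375 over YA-A375, 5 rows were at least 1.2-fold higher, beside 21.5% of genes, both SERPINA3 rows were lower, beside 23.0%, and LCN2 and PTX3 were at least 2-fold higher, beside 3.04%. The genes had been chosen on these values, and nothing is read from their share. Changes in YA-A375 and OA-A375 share the control library.

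**Figure D3:**
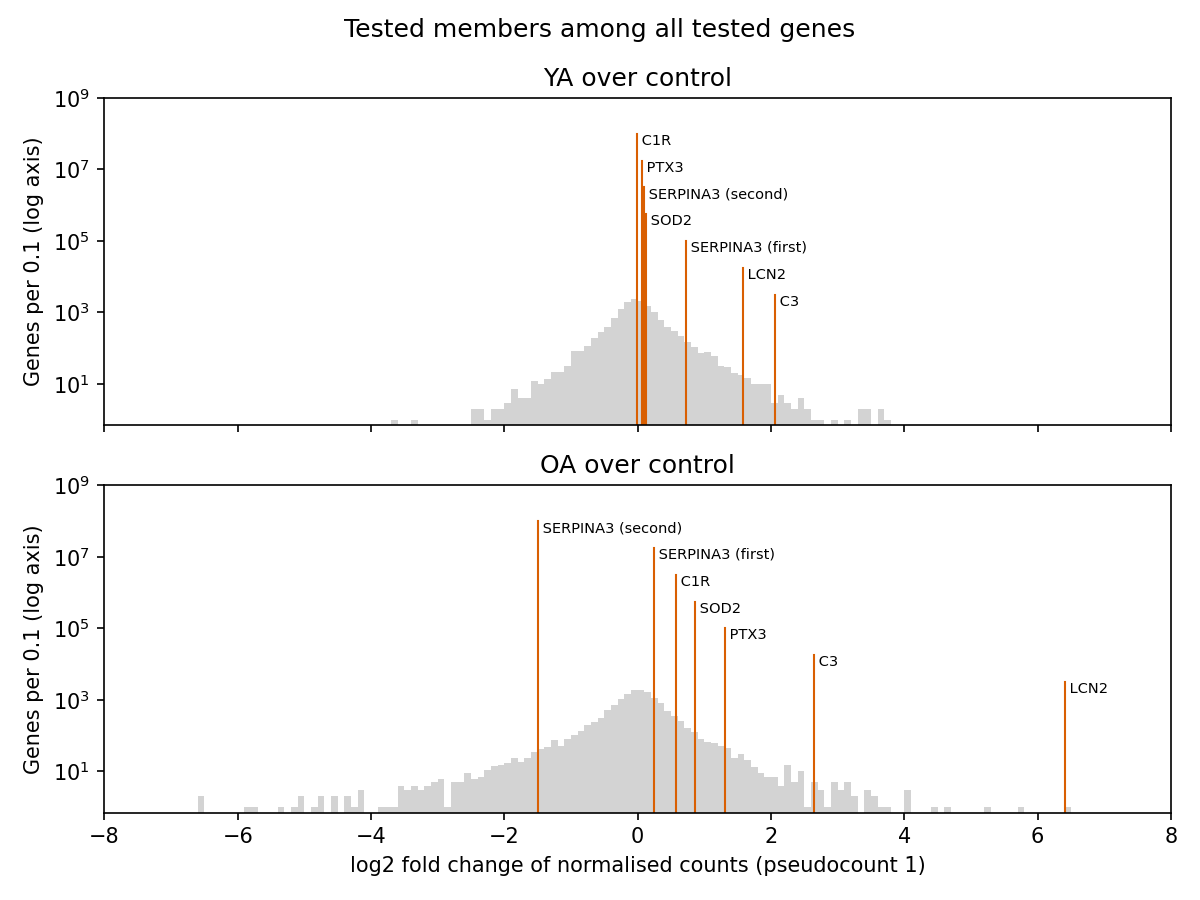
Distribution of log2 fold changes over 14413 genes (grey bars, log axis) in YA over control and OA over control, with the 7 rows that passed the filter as vertical lines whose heights only separate the labels. In OA over control LCN2 lies at 6.42, the highest value after a pseudocount of 1, and C3 at 2.64, while C1R, PTX3, SOD2 and the second SERPINA3 row lie within 0.13 of 0 in YA over control.

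Few other complement components were expressed enough to compare with control. Of 24 other components of the activation pathways, 4 passed the filter. In OA-A375 over control 1 was at least 1.2-fold higher and 2 were lower, beside 21.1% and 21.5% of all genes. Their median log2 fold change was -0.19 beside 0.01 over all genes. In YA-A375 over control 2 of these 4 were higher and 1 was lower, beside 17.4% and 16.4%. Their median there was 0.21 beside -0.02. C5, the next component of the cascade after C3, had 57, 47 and 15 reads and was 0.313-fold of control in OA-A375 (0.165 to 0.561). Factor D (CFD), which cleaves factor B, had 28, 35 and 40 reads, 1.70-fold of control (1.02 to 2.86). MASP2, a protease of the lectin pathway, was counted 18, 56 and 12 times and was 3.12-fold of control in YA-A375 (1.81 to 5.64).

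Regulators of complement were mixed. Of 19 regulators, 9 passed the filter. In OA-A375 5 were at least 1.2-fold higher and 3 lower, beside 21.1% and 21.5% of all genes. Their median log2 fold change was 0.32. Against the same control, 1 was higher and 5 were lower in YA-A375, beside 17.4% and 16.4%. Their median there was -0.29 beside -0.02 over all genes. CD55, which speeds the decay of C3 convertases, had 1908, 1710 and 3962 reads in control, YA-A375 and OA-A375 and was 2.47-fold of control in OA-A375 (2.34 to 2.61). CD59, which blocks the membrane attack complex, had the most reads of the list, with 5417, 4307 and 5915, 1.30-fold in OA-A375 (1.25 to 1.35) and 0.797-fold in YA-A375 (0.766 to 0.830). CPN1, the catalytic chain of the carboxypeptidase that inactivates C3a and C5a, was lower in both, with 196, 83 and 59 reads. Among 11 receptors, 6 passed the filter, and 0 of them were higher and 3 lower in OA-A375, beside 21.1% and 21.5% of all genes. C5AR1, the C5a receptor, had 25, 108 and 20 reads, 4.33-fold of control in YA-A375 (2.78 to 6.99), and ITGB2, the beta chain of complement receptor 3, had 161, 99 and 57.

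The wider acute-phase list was mostly below detection. Of its 23 other genes, 4 passed the filter. In OA-A375 2 were at least 1.2-fold higher and 1 was lower, beside 21.1% and 21.5% of all genes. Their median log2 fold change was 0.32. SERPINA1, or alpha-1-antitrypsin, which lies in the same serpin cluster as SERPINA3, had 118, 127 and 277 reads and was 2.80-fold of control in OA-A375 (2.25 to 3.499). A2M, a broad protease inhibitor, had 1174, 246 and 74 reads, 0.0751-fold (0.0585 to 0.0950). Of the negative acute-phase genes, which the liver turns down, transferrin (TF) had 49, 73 and 3 reads and RBP4 had 28, 64 and 29. Among the other pentraxins NPTX2 had 257, 337 and 56 reads, 0.260-fold of control in OA-A375 (0.191 to 0.348), opposite in direction to PTX3. SERPINA5, of the same clade as SERPINA3, had 261, 454 and 263 reads, 1.74-fold of control in YA-A375 (1.49 to 2.04).

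Genes that handle iron or bind lipocalin-2 were mixed. Of 16, 10 passed the filter. In OA-A375 5 were at least 1.2-fold higher and 2 lower, beside 21.1% and 21.5% of all genes. Their median log2 fold change was 0.24. MMP9, the gelatinase that lipocalin-2 binds and protects, had 1 read in control, 3 in YA-A375 and 92 in OA-A375, and its ratio of 109.6 to control in OA-A375 had an interval from 19.2 to 4375. MMP9 passed the filter only through its count in OA-A375. HMOX1, or heme oxygenase, had 127, 115 and 221 reads, 2.07-fold (1.66 to 2.60), and the ferritin heavy chain FTH1 had 7321, 10087 and 8794, 1.38-fold in YA-A375 (1.34 to 1.42) and 1.43-fold in OA-A375 (1.39 to 1.48). Among 15 other superoxide and peroxide enzymes that passed the filter, 3 were higher and 2 lower in OA-A375, beside the same shares. Their median was 0.10. GPX1 had 2219, 2206 and 3268 reads, 1.75-fold of control in OA-A375 (1.66 to 1.85), and PRDX2 had 3175, 2570 and 2036.

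Cytokines, receptors and factors that induce or regulate acute-phase genes were nearly all expressed. Of 22, 19 passed the filter, with 12 at least 1.2-fold higher and 4 lower in OA-A375 over control (median log2 fold change 0.45) and 8 higher and 3 lower in YA-A375 (median 0.13). Over all genes, 21.1% were higher and 21.5% lower in OA-A375, and 17.4% and 16.4% in YA-A375. IL1B had 154, 109 and 1075 reads, 8.32-fold of control in OA-A375 (7.02 to 9.91), IL1A had 184, 201 and 865, and IL6 had 5, 10 and 65. IL6 passed the filter only through its count in OA-A375. NFKBIA, the NF-kB feedback inhibitor, had 376, 768 and 1379 reads, 2.05-fold of control in YA-A375 (1.81 to 2.32) and 4.37-fold in OA-A375 (3.90 to 4.91). CEBPD, a C/EBP factor of the acute phase, had 177, 393 and 301 reads and was similar in both, at 2.23-fold (1.86 to 2.67) and 2.03-fold (1.68 to 2.45). IL1RAP and IL6R, parts of the IL-1 and IL-6 receptors, were picked after their values had been seen. Both were lower in OA-A375, at 0.661-fold of control (0.589 to 0.743) and 0.758-fold (0.654 to 0.878). Other chains of these receptors differed from them. IL1R1, too low for the filter, had 4, 11 and 24 reads, 7.15-fold of control in OA-A375 (2.46 to 28.3). IL6ST had 5675, 5211 and 4538 reads, 0.953-fold (0.916 to 0.991).

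**Figure D4:**
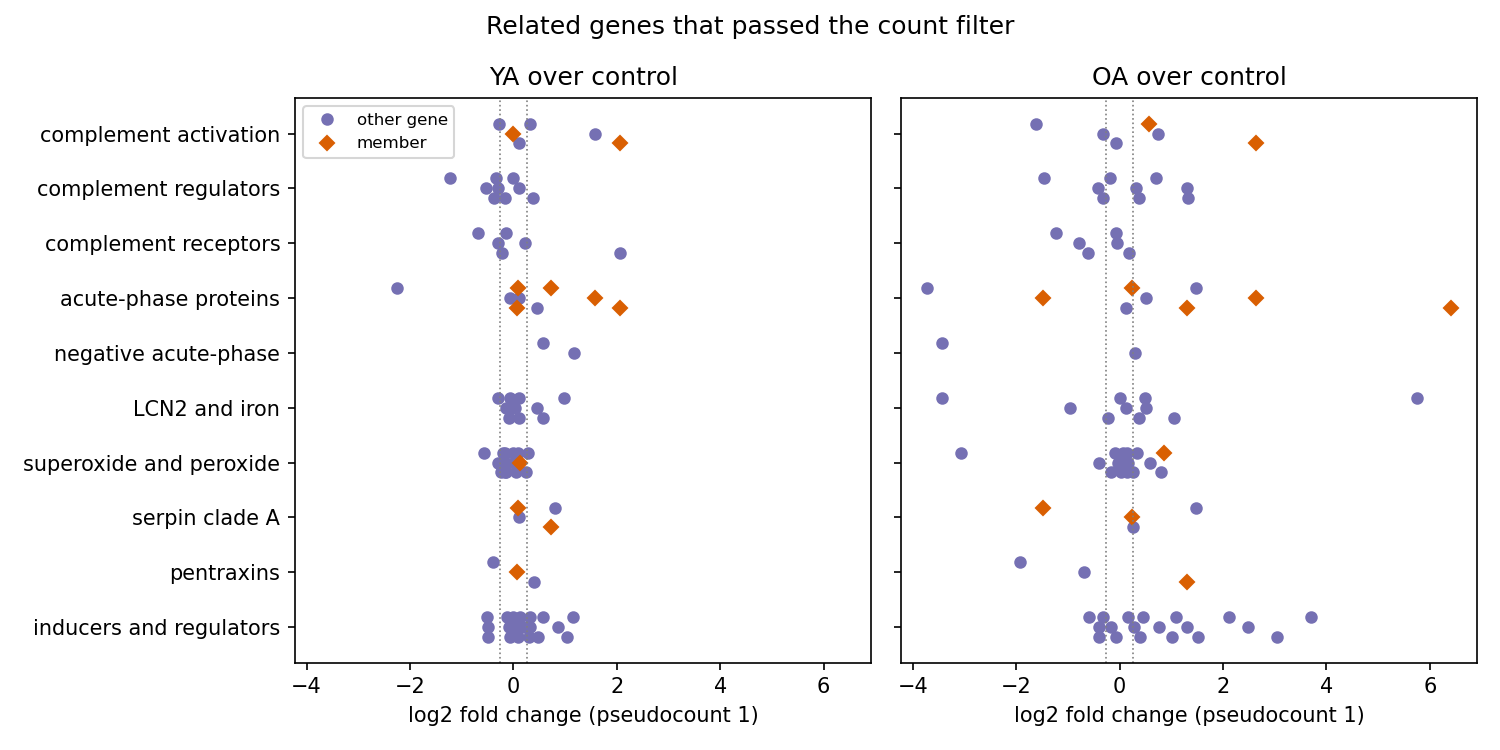
Log2 fold changes, YA over control and OA over control, of the genes of 10 related lists that passed the minimum mean count, 1 point per row, with the 10 genes of the set as diamonds and 1.2-fold in either direction as dotted lines. In OA over control the member at the far right is LCN2 at 6.42, and the gene nearest to it is MMP9 in the iron list.

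The genes whose pattern over the 3 libraries was most like that of LCN2 were found by the distance between their log2 fold changes over control in YA-A375 and OA-A375. The nearest was MMP9, at a distance of 0.90, followed by SULT1B1 (1.85), CXCL8 (2.32), IL32 (2.34) and SPRR2D (2.38). SULT1B1, a sulfotransferase, had 7, 16 and 167 reads, and SPRR2D, a cornified envelope protein, had 9, 36 and 140. CXCL8, the neutrophil chemokine IL-8, had 401, 495 and 7523, and IL32 had 1, 24 and 65. In OA-A375 over control the intervals of MMP9 (19.2 to 4375) and IL32 (13.4 to 3105), each with 1 read in control, contained the 95.4-fold of LCN2, and SULT1B1 was 28.4-fold of control (13.5 to 71.8). Around the median of the 7 rows that passed, the 5 nearest genes (DOCK3, PMS2P4, MORC4, LTBP2 and B4GALT1) lay within 0.05.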

How the data were processed

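Raw counts per gene, as whole numbers, were deposited by the authors for 3 libraries, 1 per group. The submitters' processing notes name STAR 2.5.1b, featureCounts, R 3.6.1 and hg38, while the annotation release, the strand setting and the handling of multi-mapped reads were not given in the sources used here. Counts were divided by DESeq2 1.42.0 size factors (R 4.3.3), the tool the study's methods name. Without replicates no DESeq2 or edgeR test could be run. Fold changes are ratios of normalised counts with 95% Clopper-Pearson intervals from the reads of both libraries. As PCR copies were not collapsed by molecular identifiers, these intervals, and the floor of 3 counts, describe counting error alone. Calls, ranks and list medians used log2 values after a pseudocount of 1, over 14413 genes whose normalised counts averaged 20 or more, and a cutoff of 1.2-fold, the study's cutoff for pathway analysis read as a linear fold. Positions and exon lengths came from GENCODE release 29 (57433 of 58037 identifiers matched without version), promoters from RefSeq. Python 3.11.15, scipy 1.17.1 and Biopython 1.88 were used. The fold procedure was run on simulated counts that held counting error alone, so spread between libraries was not tested. The genes and lists were chosen with earlier results of these data known. Beyond the 10 genes, the text names those with the largest fold in each list, the most abundant one, cell type markers, overlapping genes and the genes nearest in pattern. Further genes are marked where they were picked after being seen. The alternatives were edgeR 4.0.16 TMM and total-count scaling, other filters, pseudocounts and cutoffs, and longest-transcript lengths. One gene that this rule selects is not reported here.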

Additional observations from a re-analysis of the deposited data

How the results depend on the processing

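No paired analysis was possible because each group had 1 library, and for the same reason no replicate could be left out. SAA2 had no fold in any comparison, and CFB had none in OA over control. The other folds of the set had 90 alternative values, under TMM scaling, total-count scaling, a pseudocount of 1 or the sum of both SERPINA3 rows. All of them stayed within the counting intervals they were set against. The SERPINA3 sum was set against the first row only. In OA-A375 over control that sum, at 0.727, was below 1 where the first row was at 1.19. It also lay outside the interval of the second row (0.141 to 0.718). LCN2 ranked 1 under all 5 alternatives tried for its rank. Neither other scaling moved the median of all genes by more than 0.1 (log2). Levels per length moved with the longest transcript in place of all exons for 16 of 33 values, and the order of the 5 leading genes stayed as given. The overlaps did not: in OA-A375 that of LCN2 with PTX3 was lost and C3 overlapped LCN2. In YA-A375 C1R overlapped LCN2, and in control C3 overlapped PTX3 and SOD2 overlapped C1R.

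With no filter, 6 rows of the set were higher in YA over control, 8 higher and 2 lower in OA over control, and 4 lower in OA over YA. These rows include SAA2 and CFB, which have too few counts for a fold in OA over control. With a minimum mean of 100, 0 were lower in either comparison of OA. How many genes entered in all with no filter or with that minimum was not recorded. No share of all genes therefore stands beside these counts, and nothing is read from them. At 2-fold or at a log2 fold change of 1.2, 3 were higher in OA over control, 2 higher in OA over YA and 1 lower there, and 1 was lower in OA over YA with the counting interval beyond 1.2-fold. For all genes, the numbers higher and lower in YA over control, OA over control and OA over YA were 9661 and 9306, 8340 and 10895, and 8049 and 10917 with no filter. Of the 14413 genes that passed the filter, they were 310 and 140, 412 and 535, and 438 and 639 at 2-fold. At a log2 fold change of 1.2 they were 174 and 86, 282 and 402, and 304 and 441. With the interval wholly beyond 1.2-fold they were 869 and 640, 1303 and 1308, and 1301 and 1444. With a minimum mean of 100, 1404 and 1451 were higher and lower in YA over control, 1947 lower in OA over control and 1991 lower in OA over YA.

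List medians moved mostly with no filter, which adds genes of few counts. In OA over control they became -0.18 for complement regulators, 0 for acute-phase genes, 0.0063 for the iron list and 0.76 for the inducers and regulators. Serpin clade A went from 0.87 to 0.13 there. In OA over YA complement activation went from -0.77 to -0.21, acute-phase genes from 0.12 to -0.37 and negative acute-phase genes from -2.44 to -0.048. The iron list went from 0.13 to 0.014, serpin clade A from 0.41 to -0.024 and pentraxins from -1.31 to -0.37. In YA over control negative acute-phase genes went from 0.87 to -0.40, serpin clade A from 0.45 to 0.056 and pentraxins from 0.00073 to -0.56. With a minimum mean of 100 the medians became -0.18 for complement activation in OA over YA and 0.37 for the iron list in OA over control. Fewer or more genes enter under other filters, and other causes were not tested.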

Other observations

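Some values of iron genes and of genes near C3 in pattern were picked after they had been seen. SLC22A17, a reported cell-surface receptor of lipocalin-2, was counted 8 times in control, 5 times in YA-A375 and 0 times in OA-A375. Against a floor of 3 counts in OA-A375 its control level was 2.24-fold higher, a value that leaves out the counting error of the 8 reads. LRP2, the other reported receptor, had 0, 0 and 1 reads. The transferrin receptor TFRC, which brings iron into the cell, had 9841, 9232 and 4223 reads, 0.511-fold of control in OA-A375 (interval 0.493 to 0.530) and 0.941-fold in YA-A375 (0.914 to 0.968).

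By the same distance as for LCN2, the gene nearest to C3 was CIDEC (0.13), a lipid droplet protein with 6, 31 and 36 reads in control, YA-A375 and OA-A375. ID3 (0.18), an inhibitor of DNA binding, had 161, 593 and 835 reads, 3.69-fold of control in YA-A375 and 6.18-fold in OA-A375 (5.21 to 7.36). LURAP1L (0.26) had 24, 94 and 112 reads. SRPK3 (0.53) had 5, 32 and 24 reads, and SLC27A6 (0.65), a fatty acid transport protein, had 5, 19 and 46.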
